A study of Mus musculus with 2 samples.

Results

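The genes described here encode the calcium sensors hippocalcin (Hpca), hippocalcin-like 1 and 4 (Hpcal1 and Hpcal4), neurocalcin delta (Ncald), visinin-like 1 (Vsnl1) and neuronal calcium sensor 1 (Ncs1), calmodulin (Calm2 and Calm3), and neurogranin (Nrgn), which is itself no calcium sensor but binds calmodulin. They were selected by gene symbol, a rule that uses no measured value, although the choice was made with earlier results of these data known. They number 9 of the 55536 annotated genes in the tables. Total RNA was sequenced from hippocampus of 2 female B6CASTF1/J mice of 8 to 10 months, hybrids of the C57BL/6J and CAST/EiJ strains, with 1 library from each animal. The input was 300 ng of RNA per library, to which ERCC spike-ins, synthetic transcripts of known amount, were added, and a directional kit that reduces ribosomal RNA was used. The labels call the libraries biological replicates 1 and 2 and the animals 1 and 5, but give both the same donor identifier, so that the reading as 2 animals rests on the animal numbers. The tissue term is a layer of the hippocampus, with the layer unnamed. The labels name no treatment, and both animals form 1 group. No condition was compared, and no p-value was computed.

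Calmodulin is a small soluble protein whose EF-hand loops bind calcium and which then switches on kinases, phosphatases, cyclases and channels. The hippocalcin, visinin-like and neuronal calcium sensor proteins are relatives that carry a fatty acid, myristate, on their second residue, and most of them expose it on binding calcium and move to membranes. Hippocalcin was named for its abundance in hippocampal pyramidal cells. Neurogranin holds calcium-free calmodulin at postsynaptic sites through its IQ motif and releases it when calcium rises.

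The coding sequences show how these genes differ. The leading transcripts of Calm2 and Calm3 encode the same 149 residues, but 369 of their 447 coding bases, or 82.6%, are identical. Of the 78 positions that differ, 74 lie at the third codon position, 4 at the position that opens the codon and 0 at the middle position. The spliced coding strand of the first 120 bases is shown from GENCODE M21 on mm10. Capitals mark the 18 positions that differ between the genes, to make visible where these reference sequences differ although the protein is the same. Variants of the CAST/EiJ strain are not included in the sequences shown here.
Calm2: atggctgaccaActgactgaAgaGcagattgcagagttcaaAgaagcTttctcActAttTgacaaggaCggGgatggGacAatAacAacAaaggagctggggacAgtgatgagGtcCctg
Calm3: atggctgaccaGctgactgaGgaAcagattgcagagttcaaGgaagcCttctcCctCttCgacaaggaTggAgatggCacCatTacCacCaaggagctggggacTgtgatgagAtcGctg

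No run of 31 bases in the leading Calm2 transcript occurred in Calm3, or the other way round. Of the 31-base runs of Calm2, 23.0% occurred in the processed pseudogenes Gm7308, Gm15720 and Gm14480, and 5.40% of those of Calm3 occurred in the processed pseudogene Gm5881. Those pseudogenes held at most 26.6 expected counts in a library, against at least 20839 for Calm2 and 37588 for Calm3.

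Among the 6 sensors, Hpca and Hpcal1 encode proteins with 93.8% identical residues and Hpca and Ncald 88.1%. Hpcal4 and Vsnl1 form a second pair at 89.5%, at 67.2 and 66.7% to Hpca, and Ncs1 is the most distant at 55.2 to 58.0% from the other 5. Each of the 6 begins with a glycine at position 2, the residue that takes myristate, and holds 3 loops that match the EF-hand signature, against 4 in calmodulin. The opening 120 coding bases of the leading transcripts are shown with capitals at positions that differ from Hpca, to make visible that Ncs1, with 36, differs at the most positions and Hpcal1, with 14, at the fewest.
Hpca: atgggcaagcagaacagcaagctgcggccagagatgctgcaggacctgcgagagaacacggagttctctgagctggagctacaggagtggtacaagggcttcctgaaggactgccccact
Hpcal1: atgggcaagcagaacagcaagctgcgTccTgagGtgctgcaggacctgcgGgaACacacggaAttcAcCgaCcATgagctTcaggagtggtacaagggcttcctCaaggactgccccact
Ncald: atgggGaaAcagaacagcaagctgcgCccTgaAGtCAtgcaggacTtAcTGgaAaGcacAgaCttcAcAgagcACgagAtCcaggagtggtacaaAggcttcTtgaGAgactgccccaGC
Hpcal4: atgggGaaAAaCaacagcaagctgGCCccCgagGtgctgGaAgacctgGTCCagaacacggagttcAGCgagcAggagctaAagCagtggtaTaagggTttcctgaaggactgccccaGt
Vsnl1: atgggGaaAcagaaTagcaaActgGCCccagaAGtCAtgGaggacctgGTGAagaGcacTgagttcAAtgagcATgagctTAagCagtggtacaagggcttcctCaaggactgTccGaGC
Ncs1: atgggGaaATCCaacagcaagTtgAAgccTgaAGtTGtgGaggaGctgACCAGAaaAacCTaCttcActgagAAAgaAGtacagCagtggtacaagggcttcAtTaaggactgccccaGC

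**Figure D1:**
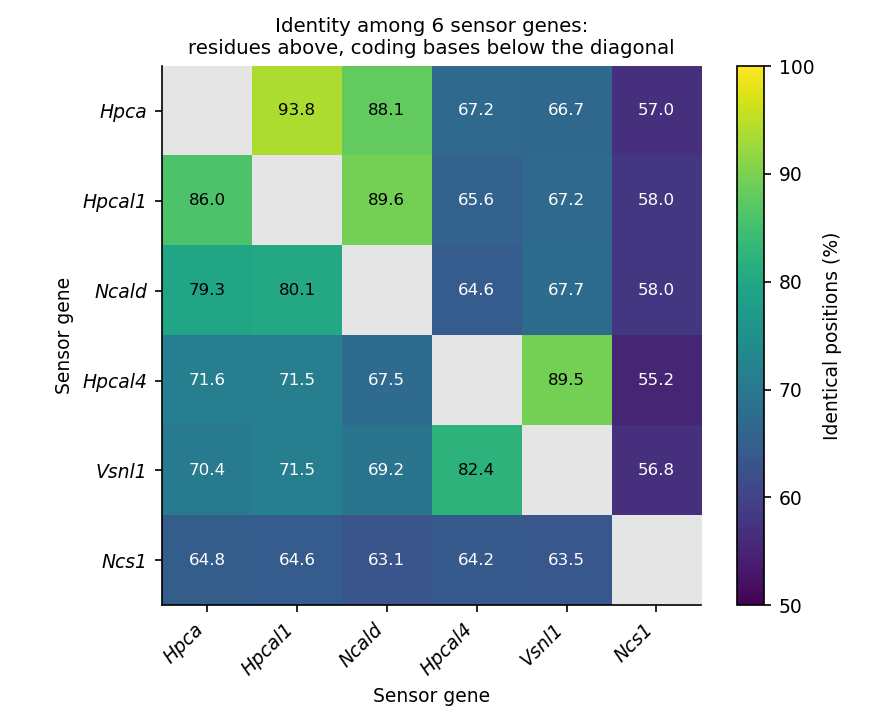
Percent identity among the 6 sensor genes, with protein residues above the diagonal and coding bases below it, computed from the leading GENCODE M21 transcripts. Hpca, Hpcal1 and Ncald form a group at 88.1 to 93.8% of residues, Hpcal4 and Vsnl1 a pair at 89.5%, and Ncs1 stays at 58.0% or less to every other sensor.

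Neurogranin has 78 residues, 0 EF-hand loops and an IQ motif that starts at residue 33. Coding bases 67 to 159 of Nrgn are shown with that motif in capitals, since it is the part of the protein that binds calmodulin.
Nrgn: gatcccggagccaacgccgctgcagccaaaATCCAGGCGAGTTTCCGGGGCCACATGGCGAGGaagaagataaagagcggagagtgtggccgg

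The libraries held 34208349 and 28417193 expected counts, which are reads shared out among the genes they match, and of these spike-ins held 0.178 and 0.212%. Markers of excitatory neurons (5 of 5 genes), dentate granule cells (4 of 4), CA1 (3 of 3) and CA3 (3 of 3) reached at least 1 TPM in both libraries, where TPM is a length-normalised share of all transcripts. So did markers of inhibitory neurons, astrocytes, oligodendrocytes, microglia and endothelium. The libraries stood apart in markers of the choroid plexus, a ventricular tissue next to the hippocampus, where all 6 genes were at least 2-fold higher in replicate 2 and their summed TPM was 29.7 in replicate 1 and 643 in replicate 2. They also stood apart in activity-induced genes such as Arc and Fos, where 6 of 6 were lower in replicate 2 and 4 at least 2-fold, with summed TPM of 198 and 78.1.

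All 9 genes were detected in both libraries. In order of mean TPM in the gene table, which divides counts by transcript length, they ran from Hpca, Calm2 and Calm3 through Nrgn, then Vsnl1, Hpcal4 and Ncald, to Ncs1 and, lowest, Hpcal1. The 9 genes together held 4617 ± 244 TPM (SD, n = 2), which was 0.925 ± 0.053% of the TPM of nuclear protein-coding genes. Among the 22015 such genes, Hpca ranked 9, Calm2 11, Calm3 14 and Nrgn 41 by mean TPM, whereas Hpcal1 ranked 3959. The rank of Hpca differed between the animals, at 18 in replicate 1, behind Calm2 at 10 and Calm3 at 15, and at 8 in replicate 2, ahead of both. Levels of neighbours in this order are called apart where the gap between means exceeded both SDs and was found in each animal.

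**Figure D2:**
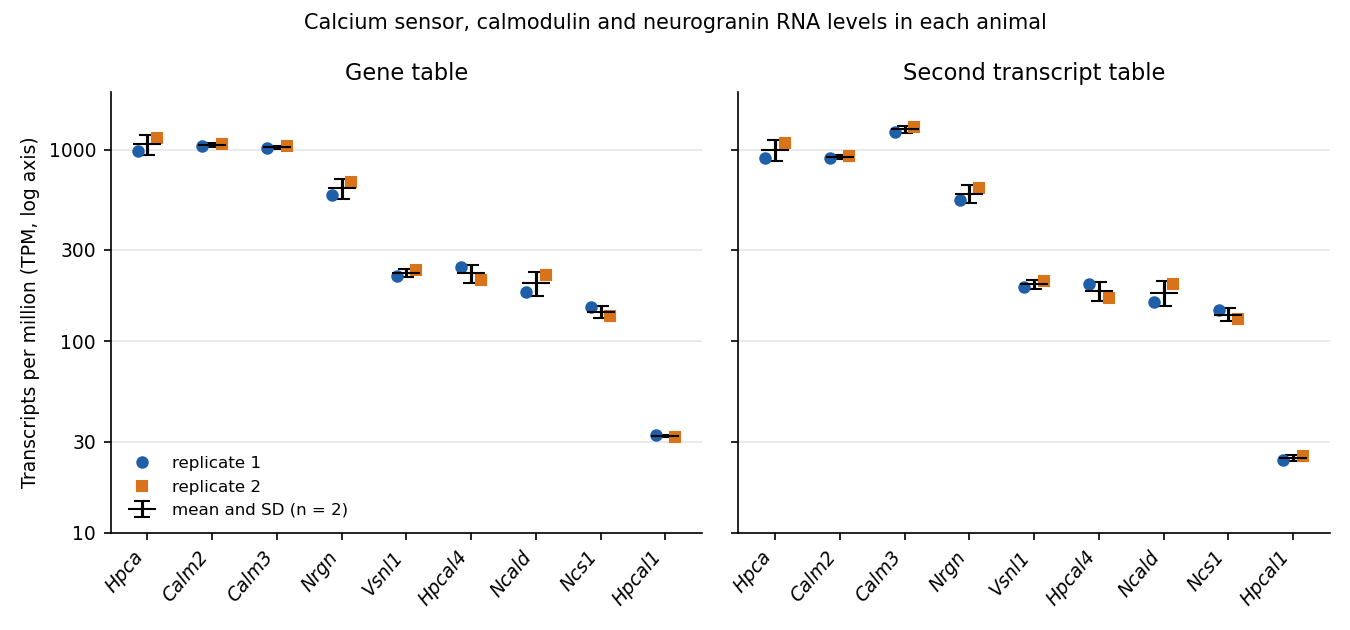
Level of each of the 9 genes in TPM on a log axis, in the gene table (left) and summed over transcripts in the second transcript table (right). Circles and squares are the 2 animals, and bars give the mean and SD. Over both tables and animals, Hpca, Calm2, Calm3 and Nrgn sit at 546 TPM or more, Vsnl1, Hpcal4, Ncald and Ncs1 between 130.1 and 243 TPM, and Hpcal1 at 32.45 TPM or less.

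Calm2 and Calm3 had nearly equal levels. Calm2 (ENSMUSG00000036438.13, chromosome 17, 87433412 to 87446935, minus strand) had 1042 TPM in replicate 1 and 1077 in replicate 2. Calm3 (ENSMUSG00000019370.10, chromosome 7, 16915379 to 16924114, minus strand) stood at 1019.6 and 1046 TPM. Both differed little between the animals, with SDs of 24.5 and 18.7 TPM on means of 1059.5 and 1033 TPM. The TPM of Calm2 over that of Calm3 was 1.02 in replicate 1 and 1.03 in replicate 2, a small gap that was found in each animal and exceeded both SDs. With TPM taken over nuclear protein-coding genes the gap no longer exceeded the SD of Calm2.

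This order depended on the quantification. In the second transcript table, which has the layout of kallisto, Calm3 led at 1277 ± 55.4 TPM against 915 ± 21.4 TPM for Calm2, and was 1.38 times as high in replicate 1 and 1.41 times in replicate 2. On expected counts, which are not divided by length, Calm3 also had the more, with 43382 and 37588 against 24131 and 20839 for Calm2. The leading transcript is 2290 bases long for Calm3 and 1205 for Calm2, with the same 447 coding bases, so that the difference in length lies in the untranslated parts. The 3′ untranslated part has 1569 bases in Calm3 and 615 in Calm2.

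Nrgn (ENSMUSG00000053310.11, chromosome 9, 37544492 to 37552904, minus strand) had 577 TPM in replicate 1 and 682 in replicate 2, a mean of 629 ± 73.9 TPM. It was below Calm2 and Calm3 in both animals and both tables. Its TPM was 0.554 times that of Calm2 in replicate 1 and 0.633 times in replicate 2. Against Hpca it kept nearly the same proportion, 0.59 times in replicate 1 and 0.593 times in replicate 2.

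Among the 6 membrane-directed sensors, Hpca accounted for 56.1 ± 2.66% of their summed 1895 ± 127 TPM. On expected counts, which are not divided by length, it held 35.0 ± 3.31%, with 32.7% against 28.2% for Hpcal4 in replicate 1 and 37.3% against 23.1% in replicate 2. Hpca (ENSMUSG00000028785.13, chromosome 4, 129111570 to 129122036, minus strand) had 979 TPM in replicate 1 and 1150.3 in replicate 2, a mean of 1065 ± 121 TPM. In replicate 1 it was below Calm2 and Calm3, and in replicate 2 above both, so Hpca and Calm2 were not apart. In the second transcript table, where its mean was 995 ± 123 TPM, it was not apart from Calm2 and was below Calm3 in both animals.

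Vsnl1, Hpcal4 and Ncald were lower than Hpca in TPM by 4.03 to 5.51 times in the 2 animals and were not apart from each other. Vsnl1 (ENSMUSG00000054459.8, chromosome 12, 11325242 to 11436613, minus strand), whose product modulates cyclic nucleotide signalling, stood at 219.6 and 236 TPM. Hpcal4 (ENSMUSG00000046093.9, chromosome 4, 123183227 to 123194701, plus strand), which encodes a visinin-like protein known to act on voltage-gated calcium channels, stood at 243 and 209 TPM. Ncald (ENSMUSG00000051359.15, chromosome 15, 37366175 to 37792570, minus strand) stood at 182 and 222 TPM. Their order changed between the animals, with Hpcal4 the highest of the 3 in replicate 1 and the lowest in replicate 2. The TPM of Ncald over that of Hpcal4 was 0.747 in replicate 1 and 1.07 in replicate 2.

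Ncs1 (ENSMUSG00000062661.6, chromosome 2, 31245823 to 31295989, plus strand), which promotes transmitter release and binds a phosphatidylinositol 4-kinase, stood at 150.3 and 135 TPM and was below Ncald in both animals. Hpcal1 (ENSMUSG00000071379.2, chromosome 12, 17690856 to 17791933, plus strand) stood at 32.45 and 31.7 TPM. Although its protein is the closest relative of hippocalcin, its TPM was lower than that of Hpca by 30.2 times in replicate 1 and 36.3 times in replicate 2. In the second transcript table the order of Nrgn, Vsnl1, Hpcal4, Ncald, Ncs1 and Hpcal1 was the same.

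Hpcal1 had the fewest reads of the 9 genes, and of the 6 sensors the largest share of sequence found at other loci. It had 949 and 743 expected counts, and 21.8% of the 31-base runs of its leading transcript occurred in 54 other genes. For Hpca, Ncald, Vsnl1, Hpcal4 and Ncs1 that share was between 0.02 and 2.84%, and for Nrgn it was 0%. Hpca and Ncald shared 16 such runs with each other. Of the runs of Hpca, 14 also occurred in Hpcal1, as did 2 of those of Hpcal4. The deposited posterior SD of the gene count, which measures uncertainty of read assignment, was at most 0.00836 times the square root of the count for the 9 genes. Ncald overlaps 11 annotated genes, 5 of them on the opposite strand, and these held 75.2 and 112 expected counts in all, against 11143 and 10854 for Ncald. At its 3′ end Hpca overlaps 57 bases of Tmem54 on the opposite strand, which had 0 counts. The strand setting of the counting was not given in the sources used here.

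The 9 genes have 42 annotated transcripts, 31 of them protein-coding, and 22 transcripts reached 10% of their gene's TPM in at least 1 library and table. Calm2, Nrgn and Hpcal4 were each carried by 1 transcript. Calm2-201 held 98.5 ± 0.049% of its gene's TPM, Nrgn-201 98.5 ± 0.96% and Hpcal4-201 97.1 ± 1.23%. In the second table these shares were 98.3, 100 and 98.1%.

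For Hpca the tables gave different leading transcripts. In the first table Hpca-201 held 76.1% in replicate 1 and 74.1% in replicate 2, Hpca-207 10.3 and 8.94%, and Hpca-209 0.002 and 0.135%. In the second table Hpca-201 held 32.0 and 39.3%, Hpca-209 35.1 and 24.2%, and Hpca-205 21.2 and 21.6%. Hpca-201, Hpca-207 and Hpca-209 encode the same 579 coding bases and differ in their untranslated ends. Hpca-205 is annotated without a stop codon, with 561 coding bases. The disagreement concerns transcripts whose starts lie close together. The 8 transcripts that start between 129120946 and 129122036 together held 94.6 ± 1.36% in the first table and 95.9 ± 1.81% in the second. The remaining transcript, Hpca-202, starts at 129118967 and held 5.40 ± 1.36 and 4.12 ± 1.81%.

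Hpca-201 starts at 129121291, and RefSeq lists a start for Hpca on GRCm38.p6, the same build, at 129121303. The 250 bases before that start are shown because most Hpca RNA in the first table was assigned to it. Capitals mark GGGCGG, the core of the GC box bound by Sp1 and its relatives, searched on both strands (CCGCCC on the other).
Hpca, chr4:129121304-129121553, minus strand: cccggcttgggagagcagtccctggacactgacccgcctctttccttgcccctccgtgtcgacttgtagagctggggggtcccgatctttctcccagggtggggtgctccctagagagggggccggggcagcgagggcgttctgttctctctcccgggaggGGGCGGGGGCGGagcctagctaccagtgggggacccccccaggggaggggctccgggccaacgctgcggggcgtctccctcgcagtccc
This window had 71.2% G and C and 16 CpG pairs, against medians of 52.4% and 6 over the 32851 windows of equal length in the RefSeq set. GGGCGG occurred in 7 of the 10 windows listed for 7 of the 9 genes, and in 32.7% of all windows. The 10 windows, some of which belong to the same gene, had medians of 59.6% G and C and 15 CpG pairs. They were thus richer in these letters than the whole set, and the part of this in the count was not tested. CACGTG occurred in 1 of the 10 and in 6.02% of all. TATAAA occurred in 0 of the 10 and in 12.4% of all, and the full cyclic AMP response element TGACGTCA in 0 of the 10 and in 1.55% of all, also on both strands. A match describes letters and does not show a bound factor.

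Ncald had start regions far apart. Its 5 transcripts that start between 37458541 and 37459360 held 83.8 ± 1.22% of its TPM in the first table and 80.2 ± 0.091% in the second. The 5 that start between 37792000 and 37792570, far upstream, held 16.0 ± 1.24 and 16.7 ± 0.42%. The split between these regions was therefore similar in both tables and both animals, while the transcripts within them were less settled. Ncald-203 held 65.4 and 56.2% in the first table and 63.7 and 56.4% in the second. Ncald-202 held 11.0 and 15.4% in the first table and 5.49 and 7.84% in the second. For Ncald-204 the shares were 5.08 and 6.69% in the first table and 8.77 and 12.9% in the second. Of the upstream transcripts, Ncald-211 held 12.4 and 14.4% in the first table, whereas the second gave Ncald-208 6.96 and 11.1% and Ncald-211 6.05 and 3.07%. Ncald-201, Ncald-202, Ncald-203, Ncald-204 and Ncald-211 all carry the full 579 coding bases.

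Hpcal1 was carried by Hpcal1-201, at 95.3% in replicate 1 and 88.4% in replicate 2. Hpcal1-202, which starts 37370 bases downstream, took the rest, from 19.1 counts in replicate 1 and 38.6 in replicate 2, with deposited posterior SDs of 6.96 and 7.12 counts. The second table gave the same direction, with 3.63 and 14.5% for Hpcal1-202. Vsnl1-201 held 100 and 98.8% in the first table and 88.2 and 81.5% in the second, where Vsnl1-202, with the same 573 coding bases and another start, held the rest. Ncs1-202, annotated as a target of nonsense-mediated decay, held 9.11 and 4.98% of Ncs1 TPM in the first table and 19.6 and 16.3% in the second. On counts, which are not divided by length, it was 0.868 and 0.456%. It is 498 bases long against 4653 for Ncs1-201.

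Calm3 also differed between tables. Calm3-201, with the full coding sequence, held 89.6 and 90.9% in the first table and 61.4 and 59.7% in the second. There the short Calm3-203, of 490 bases, held 18.5 and 22.1%, and Calm3-204, of 482 bases and annotated as noncoding, 15.4 and 14.0%. In the first table these 2 transcripts held at most 0.316%. Calm3-202, of 648 bases and annotated as a target of nonsense-mediated decay, held 10.1 and 8.87% in the first table and 4.68 and 4.22% in the second. On counts, which are not divided by length, it was 2.74 and 2.38%. The TPM of Calm3-201 alone in the second table was 760.2 and 786 TPM, below the 882 and 917 TPM of Calm2-201, so that the lead of Calm3 over Calm2 there came with the TPM given to its short transcripts.

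**Figure D3:**
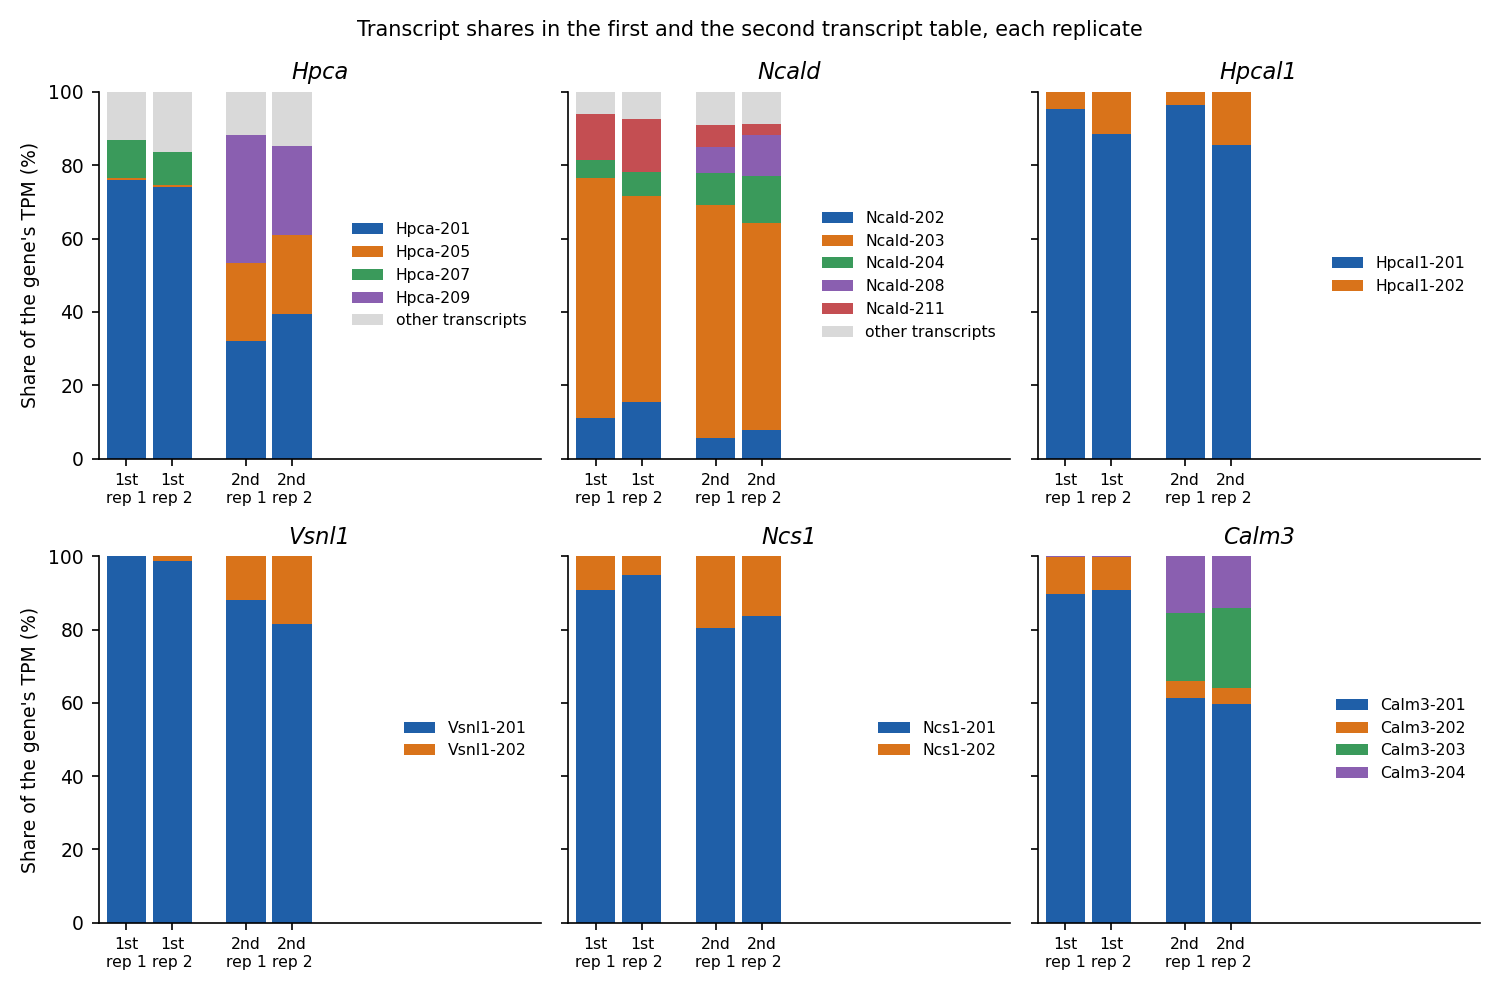
Share of each gene's TPM held by its transcripts, as stacked bars for replicates 1 and 2 in the first transcript table (left pair) and the second (right pair). Hpca and Calm3 differ most between tables, with Hpca-201 at 76.1 and 74.1% against 32.0 and 39.3%, while Ncald-203 and Hpcal1-201 have similar shares in both.

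The 2 libraries were then compared. Ratios are replicate 2 over replicate 1 on a log2 scale after TMM scaling, with 95% intervals that cover counting error only. Counting intervals excluded 1 for 8 of the 9 genes, 6 of them higher and 2 lower in replicate 2, or 0 higher and 6 lower when scaled to the spike-ins. Over all 18612 genes with a mean count of at least 10 the share was 38.8%, and over the 6456 whose mean count reached 800, a depth that all 9 had, it was 56.3%, with 23.9% of genes higher and 32.4% lower. The 8 genes whose intervals excluded 1 had at least 7490 counts in each library. These shares include genes of lower depth, with wider intervals, and are therefore not matched to the 8. None of the 9 was at least 2-fold different, against 1.14% of the 14434 genes whose mean count reached 50 and 16 of the 6456. The median size of the log2 ratio was 0.11 for the 9 genes and 0.10 for the 6456. In bulk tissue, fewer cells of a type and less RNA per cell cannot be told apart.

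Hpca was higher in replicate 2 by a log2 ratio of 0.25 (0.23 to 0.28), from 28099 and 27762 counts. Nrgn was higher by 0.24 (0.20 to 0.27) and Ncald by 0.23 (0.19 to 0.27). These 3 had similar ratios, and 13.5 to 15.9% of the 6456 genes had a larger one in either direction. Vsnl1 was higher by 0.11 (0.07 to 0.16). Calm2 and Calm3 were higher by 0.06 each, with intervals of 0.03 to 0.09 and 0.04 to 0.08. Hpcal4 was lower, at -0.23 (-0.26 to -0.20), and Ncs1 lower, at -0.09 (-0.12 to -0.05). Hpcal1 was at -0.08 with an interval of -0.22 to 0.06 that included no difference.

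Scaling to the spike-ins shifted every ratio by -0.25 on the log2 scale, and 0 of the 9 genes then had an interval above 1. Under it Hpca, Nrgn and Ncald were at -0.002, -0.018 and -0.022, with intervals that included 1. Vsnl1, Calm3 and Calm2 were lower at -0.14, -0.19 and -0.20, and Ncs1, Hpcal1 and Hpcal4 were lower at -0.34, -0.34 and -0.48. The proportion of the genes to each other does not depend on scaling: Hpca over Hpcal4 was 4.03 in TPM in replicate 1 and 5.51 in replicate 2, and Hpca over Ncs1 6.51 and 8.52. Both pairs join a gene higher in replicate 2 after TMM scaling with a lower one. Other proportions moved less, with Hpca over Nrgn at 1.70 and 1.69, over Ncald at 5.39 and 5.17 and over Vsnl1 at 4.46 and 4.87. Beside the ratios between libraries, 3 of the 11 marker lists had a median log2 ratio larger in size than that of any of the 9 genes, namely choroid plexus at 2.82, activity-induced genes at -1.09 and oligodendrocytes at 0.43. Of the 5 oligodendrocyte markers, 4 were higher in replicate 2 and Mbp was lower at -0.04, against 3 higher and 2 lower under spike-in scaling, and their summed TPM was 1297 and 1354. The medians of the remaining lists lay between -0.17 and 0.19. Of the 5 excitatory markers, 4 were higher in replicate 2 and Nptx1 was lower at -0.38, against 0 higher and 4 lower under spike-in scaling. Their summed TPM was 2394 and 2514, of which Camk2a held 1486 and 1633. Of the 5 inhibitory markers, 0 were higher and 3 lower, or 5 lower under spike-in scaling, and their summed TPM was 502 and 456. The part of these differences in the ratios of the 9 genes was not tested.

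**Figure D4:**
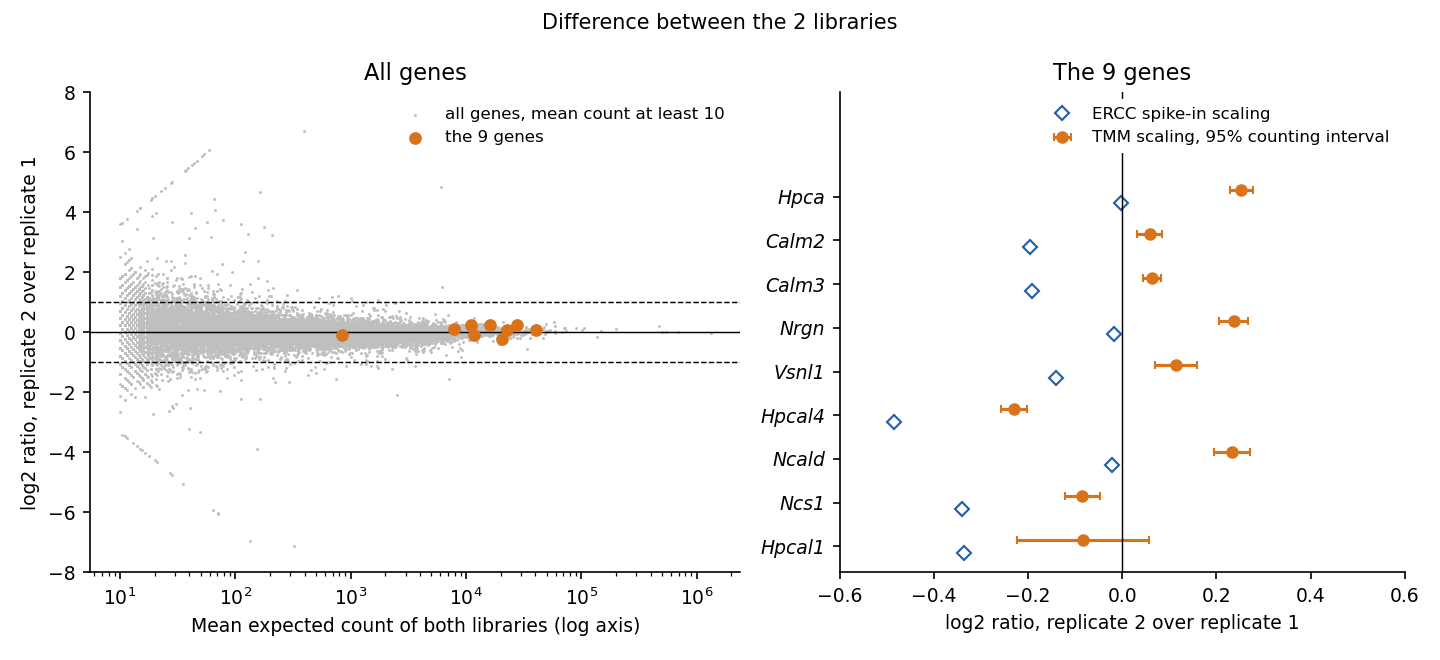
Left, log2 ratio of replicate 2 over replicate 1 against mean expected count (log axis) for all 18612 genes with a mean count of at least 10 (grey) and the 9 genes (orange), with dashed lines at 2-fold. Right, the ratios of the 9 genes with 95% counting intervals under TMM scaling (circles) and under ERCC spike-in scaling (diamonds). All 9 genes lie within 2-fold, and 6 lie above 0 under TMM scaling with intervals that exclude it, against 0 under spike-in scaling.

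Related genes put these levels in context. Of 7 other members of the neuronal calcium sensor family, the potassium channel-interacting proteins, recoverin and the guanylate cyclase activators, 5 reached 1 TPM in both libraries. Kcnip2 was the highest at 100.2 and 81.5 TPM, below every sensor described above except Hpcal1, and Guca1a, a photoreceptor protein, the lowest at 0.18 and 0.29 TPM from 3 and 4 counts. In this list 1 gene, Kcnip3, was higher in replicate 2 (log2 ratio 0.51) and 1, Kcnip2, lower (-0.32), while 4 were neither. This is near the share over all genes with a mean count of at least 10, where the interval excluded 1 for 38.8%. The median of 6 genes was -0.04, or -0.28 under spike-in scaling. Kcnip3 was named after its ratio was seen, as were Necab3, Cabp1 and the enzymes named below for their ratio.

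Of 9 genes for calmodulin-like EF-hand proteins of the CaBP and NECAB families, 6 were detected. Cabp7 was the highest at 143.8 and 139.4 TPM, similar to Ncs1, and Cabp2 the lowest with 0 counts in both libraries. The counting interval placed 1 gene higher in replicate 2, Necab3 at 0.57, and 1 lower, Cabp1 at -0.21, with a median of -0.02 over 6 genes. Under spike-in scaling 1 was higher and 5 were lower. Over all 18612 genes with a mean count of at least 10, the interval excluded 1 for 38.8% after TMM scaling and for 10951 genes under spike-in scaling. The calmodulin-like genes Calm4, Calm5 and Calml3, which are known from epithelia, had 0 counts, and Calml4 had 13 and 21. The 3 other small IQ-motif proteins that bind calmodulin were all detected. Pcp4, a marker of CA2 and of Purkinje cells, was the highest at 95.2 and 110.02 TPM and Pcp4l1 the lowest at 20.6 and 24.1 TPM. Pcp4 and Pcp4l1 were higher in replicate 2 by 0.22 and 0.24, beside 0.24 for Nrgn, and at -0.03 and -0.02 under spike-in scaling. Gap43, the remaining gene of this list, was at 0.04 with an interval of -0.05 to 0.12 that included no difference.

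The enzymes that calmodulin regulates were all present. All 22 listed genes, among them the calcium/calmodulin-dependent kinases, calcineurin subunits, calmodulin-dependent cyclases, phosphodiesterases and neuronal nitric oxide synthase, reached 1 TPM in both libraries. Camk2a, the alpha subunit of the main synaptic kinase of this kind, was the highest at 1486 and 1633 TPM, above Calm2 and Calm3 in both animals. In the second transcript table it stood at 1180 and 1335 TPM, below the 1238 TPM of Calm3 in replicate 1 and above its 1317 TPM in replicate 2. Pde1c was the lowest at 2.43 and 2.2 TPM. In this list 11 genes were higher in replicate 2, 5 lower and 6 neither, with a median of 0.09, against 1 higher and 17 lower with a median of -0.16 under spike-in scaling. The second table gave 11 higher and 7 lower. The interval excluded 1 for 38.8% of all genes with a mean count of at least 10, and for 56.3% where it reached 800. Under spike-in scaling it excluded 1 for 10951 of the 18612 genes with a mean count of at least 10. Mean counts in the list ran from 277.5 to 105824, so these shares are not matched to it in depth. The 5 genes lower in the gene table after TMM scaling were Nos1, the neuronal nitric oxide synthase, at -0.65, Dapk1 at -0.27, and Pde1a, Camk1g and Adcy3 at -0.26, -0.26 and -0.24. None of the 22 was at least 2-fold different.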

How the data were processed

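Each library has a gene table and a transcript table in the layout of RSEM and a second transcript table in the layout of kallisto, per the file headers, on mm10 with the GENCODE M21 annotation named in the accompanying notes. Aligner, tool versions and strand setting: not given in the sources used here. The authors deposited expected counts without normalisation and, in the second table, estimated counts per transcript. TPM was computed by the authors from counts and transcript length, and so was the FPKM that the authors deposited, which entered an alternative. Each transcript's percent of its gene was deposited too and recomputed from TPM. The posterior SD of each count is a signal, in counts, that was deposited and covers read assignment only.

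The 9 genes and the lists of related genes and markers were chosen with earlier results of these data known. Levels are mean TPM ± SD (n = 2), and a gene counted as detected at 1 TPM in both. Expected counts were rounded, and ratios used TMM scaling (edgeR 4.0.16, R 4.3.3) over genes with a mean count of at least 10, a prior count of 2 and Clopper-Pearson 95% intervals. Effective library sizes were 34171199 and 28337144 counts. A 2-fold difference needed a log2 ratio of 1 or more in either direction, a mean count that reached 50 and an interval without 1. These criteria compare 2 libraries, and intervals cover counting error only, since no molecular identifiers are named. The ratio and interval steps were tested on simulated data. Named were all 9 genes, the highest and lowest gene of each list, genes past 2-fold and transcripts with at least 10% of their gene's TPM, and 1 item under the rule for names is not reported here. Coding sequences were read from GENCODE M21 transcripts and aligned with Biopython 1.88, and promoter windows came from RefSeq on GRCm38.p6, where 7 of the 9 genes had an entry. Alternatives were the second table, TPM over nuclear protein-coding genes, rescaled FPKM, DESeq2 1.42.0 size factors, total counts, spike-in scaling, no count minimum, a higher detection limit, shares of counts and each library left out.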

Additional observations from a re-analysis of the deposited data

How the results depend on the processing

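Levels kept the same 3 highest of the 9 genes (Hpca, Calm2 and Calm3) under every alternative tried, each library left out included. Of 8 neighbouring pairs among the 9 genes, 5 were apart in level, as many in the second table and with rescaled FPKM, and 4 with TPM over nuclear protein-coding genes, where Calm2 and Calm3 were no longer apart. With 1 library left out the SD is lost, and the number of pairs apart cannot be given. The log2 ratio of Calm2 to Calm3 TPM, whose alternatives were chosen after seeing the data, turned from 0.04 to -0.48 in the second table and lay between 0.03 and 0.04 with a library left out. The cause of the turn was not tested. Shares of summed calmodulin TPM, an alternative that had been planned, were not run. Of 22 transcript shares, 18 moved by more than their SD in the second table and 14 on counts. Under spike-in scaling the number of the 9 genes with an interval above 1 moved from 6 to 0 and below 1 from 2 to 6, and the number of all genes whose interval excluded 1 from 7218 to 10951, by the construction of a shift of -0.25 common to all genes. Under it the sign of the log2 ratio turned for Hpca (-0.0018), Nrgn (-0.0182) and Ncald (-0.0223), whose intervals then included 1. It also turned for Vsnl1 (-0.14), Calm3 (-0.19) and Calm2 (-0.20), whose intervals then lay below 1. Outside the 9 it turned for Pcp4 (-0.0311) and Pcp4l1 (-0.0162), with intervals that then included 1. It turned as well for Camk2a (-0.13), Ric8a (-0.23), Calb2 (-0.23), S100b (-0.24) and Drd2 (-0.12, with an interval that included 1 under both scalings). Without a count minimum, 1253 genes were at least 2-fold different instead of 164, since low counts then enter. DESeq2 size factors, total counts and the second table left 6 of the 9 genes higher, 2 lower and 0 past 2-fold. No paired analysis was possible because there is 1 group of 2 libraries. Depth limits Hpcal1 most, which had the widest counting interval of the 9 genes.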

Other observations

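Partners of Ncs1 and the genes listed as calcium buffers were detected in full and, after TMM scaling, differed little between the animals. Of the 4 partner genes, Ric8a, a chaperone and exchange factor for G protein alpha subunits, was the highest at 36.6 and 36.0 TPM, and Drd2, the dopamine D2 receptor, the lowest at 1.67 and 1.81 TPM from 86 and 78 counts. Ncs1 itself was higher than each of them in both animals. Of the 4 genes listed as buffers, S100b, known from astrocytes, was the highest at 75.2 and 75.5 TPM. The interneuron marker Calb2 was the lowest at 19.85 and 20.0 TPM. Thus 5 of the 6 sensors described above, all but Hpcal1, were higher in TPM than every gene of that list. In both lists 0 of 4 genes had a counting interval that excluded 1, with medians of 0.03 and 0.02 on the log2 scale. Spike-in scaling placed 3 partners and 4 buffers lower in replicate 2, with medians of -0.23 and -0.24. Over all 18612 genes with a mean count of at least 10, the interval excluded 1 for 38.8% after TMM scaling and for 10951 genes under spike-in scaling. These shares are not matched in depth to the lists, and lists of 4 genes are small.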
